A study of Mus musculus with 2 samples.

Results

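The mouse mitochondrial genome encodes 37 genes, and all of them are described here. They were taken as every annotated gene whose symbol begins with mt-, which gave 13 messenger RNA genes, 2 ribosomal RNA genes and 22 transfer RNA genes of 55536 annotated genes. Their RNA was measured by total RNA sequencing of the gastrocnemius, the large calf muscle, of male B6CASTF1/J mice at 10 days of age. The libraries form 1 group of 2, replicate 1 and replicate 2, made from 300 ng of RNA apiece. ERCC RNAs were added as controls, in a profile that the labels name for stranded libraries with reduced ribosomal RNA. No treatment, mutation or second tissue was labelled, so no difference was tested. Per the labels the animals have different numbers and share 1 donor code, so the spread between libraries may be that of animals or partly technical. In naming F1 hybrids the mother's strain comes first, and mitochondrial DNA is inherited from the mother, which places these genes on the B6 side, the strain of the reference genome.

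Mitochondrial DNA is a small circle inside the organelle. Its mRNAs encode core subunits of the respiratory chain and of ATP synthase, its rRNAs form the organelle's ribosome, and its tRNAs read the codons. Both strands are transcribed as long precursors, and tRNAs lying between the other genes mark where the precursor is cut. All other proteins of the organelle are encoded in the nucleus, and skeletal muscle is rich in mitochondria.

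The libraries held 38874862 and 38160786 expected counts in the gene table, which has the column layout of RSEM, and 37386161 and 36335649 estimated counts in a second transcript table, which has the layout of kallisto. Levels are given as TPM, a relative abundance per length of transcript. All 8 skeletal muscle markers, among them Acta1 and Ckm, passed 1 TPM in both libraries and summed to 75090 and 76293 TPM. The 4 cardiac markers summed to 56.0 and 68.0 TPM, with Nppa and Myl7 listed at 0 in both. Tnnt2 had 17.5 and 18.5 TPM and Myh6 38.5 and 49.5 TPM. The 3 liver markers summed to 1.06 and 9.76 TPM and the 3 nerve markers to 0.97 and 0.01 TPM. Ucp1, the marker of brown fat, was listed at 0 in both libraries. In bulk tissue a change in the number of cells and a change in RNA per cell cannot be told apart.

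The mitochondrial genes held 11.36% of all expected counts in replicate 1 (exact Clopper-Pearson 95% interval 11.35 to 11.37) and 12.33% in replicate 2 (12.32 to 12.34). These intervals lie apart, but they cover counting error only and treat PCR duplicates as separate molecules. Over both libraries the share was 11.8% ± 0.685 (SD, n = 2). The second table gave 11.6% and 12.7%. Ribosomal RNA made up 8.23% and 9.18% of all counts, and mRNA 3.13% and 3.15%. The share of mRNA was thus nearly level between the libraries while that of rRNA was higher in replicate 2.

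The genes lie close together on mm10, with GENCODE M21 annotation. Between mt-Tf at its first base and mt-Tp, which ends at base 15422, there are 36 pairs of neighbours. Of these, 12 abut with no base between them, 9 overlap and 15 lie apart, the last by at most 32 bases. A tRNA gene is the direct neighbour of 14 of the 15 mRNA and rRNA genes on at least one side, and of 8 of them on both sides. The plus strand carries 28 genes and the minus strand 9, which are 8 tRNAs and mt-Nd6.

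The order of mt-Rnr1, mt-Tv and mt-Rnr2 shows this packing. The last 20 bases of mt-Rnr1 (chrM:1005-1024, plus strand), the whole of mt-Tv, the valine tRNA (chrM:1025-1093), and the first 20 bases of mt-Rnr2 (chrM:1094-1113) follow each other without a gap in GENCODE M21.
mt-Rnr1, end: gaaagtgtgcttggaataat
mt-Tv: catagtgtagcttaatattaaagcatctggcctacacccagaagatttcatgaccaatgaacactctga
mt-Rnr2, start: actaatcctagccctagccc
The rRNAs on either side of mt-Tv were the most abundant mitochondrial RNAs, and mt-Tv itself was listed at 0 in both tables.

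mt-Rnr1 (chrM:70-1024) is the rRNA of the small subunit of the mitochondrial ribosome. In the gene table its level was 30067 TPM in replicate 1, and replicate 2 had 31917 TPM. mt-Rnr2 (chrM:1094-2675), the rRNA of the large subunit, had 49167 and 54329 TPM. Both were higher in replicate 2, with log2 ratios of replicate 1 over replicate 2 of -0.16 for mt-Rnr1 and -0.22 for mt-Rnr2 after TMM scaling, a scaling that sets most genes level. Their summed count was 1.15-fold higher in replicate 2 (log2 ratio -0.20, exact binomial 95% interval -0.203 to -0.198, counting error only). mt-Rnr2 stood 1.64-fold and 1.70-fold above mt-Rnr1 in TPM in the gene table, and 1.81-fold and 1.87-fold in the second table. The ratio of rRNA to mRNA counts was 2.63 in replicate 1 and 2.91 in replicate 2. It was 1.81 and 2.00 when the counts of the chromosome 1 copies, described below, were added to the mRNAs. The labels name reduced ribosomal RNA for the spike profile. How far the mitochondrial rRNAs were removed before sequencing was not tested, so their levels describe the libraries.

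All 22 tRNAs were listed at 0 counts and 0 TPM in both libraries and both tables. They are 59 to 75 bases long, with mt-Ts2, a serine tRNA, the shortest and mt-Tl1, a leucine tRNA, the longest. The effective lengths of the gene table imply a fragment of 100 bases and give every tRNA an effective length of 0. Those of the second table imply mean fragments of 347 and 355 bases and give the tRNAs 21.1 to 25.4 bases. The zeros therefore set no upper limit on the tRNAs in the muscle.

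The 13 mRNAs spanned a wide range of levels. In the gene table the 13 had medians of 2878 and 2542 TPM over the 2 libraries, and the highest stood 60.3-fold and 138-fold above the lowest. mt-Co1 was highest and mt-Co2 lowest, although both encode core subunits of complex IV. These extremes depend on reads shared with a nuclear copy of the genes, described next.

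On chromosome 1 of the reference lies a near-identical nuclear copy of part of the mitochondrial genome. It carries 7 annotated genes between chr1:24611535-24616197 on the minus strand, a span of 4663 bases. In the order of their mitochondrial matches these are Gm29216 (end of mt-Co1), Gm28661 (mt-Co2), Gm10925 (mt-Atp6), Gm28437 (mt-Co3), Gm28438 (mt-Nd3), Gm10222 (mt-Nd4l) and Gm28439 (first 876 bases of mt-Nd4). Aligned over 4140 bases, the 7 pairs differ at 2 bases, and 5 of the 7 have no substitution. The start of mt-Co2 (chrM:7013-7072, plus strand) and that of Gm28661 (chr1:24615506-24615565, minus strand), both from GENCODE M21, show the identity. Reads from such a stretch carry no mark of their origin.
mt-Co2: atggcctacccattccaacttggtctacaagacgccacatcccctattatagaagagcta
Gm28661: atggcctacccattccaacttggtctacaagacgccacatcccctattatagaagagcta
The pair is identical over all 681 aligned bases, which leaves out only the last codon of mt-Co2.

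The differing bases lie at the edges of the aligned stretches. In mt-Nd3 (chrM:9459-9481) against Gm28438 (chr1:24613097-24613119) it is T3C, counted from the first base of mt-Nd3, in its first codon. In mt-Co1 (chrM:6390-6413) against Gm29216 (chr1:24616165-24616188) it is A1066T, counted from the first base of mt-Co1. Capitals mark the differing base.
mt-Nd3: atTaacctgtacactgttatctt
Gm28438: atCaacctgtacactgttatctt
mt-Co1: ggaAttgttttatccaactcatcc
Gm29216: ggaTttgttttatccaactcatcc
Within an aligned stretch, a read that crosses neither base carries no difference between the members of its pair. mt-Co1 before base 1063 and mt-Nd4 after base 876 lie outside the aligned stretches, and reads from there match only the mitochondrial gene of the pair.

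In the gene table most counts of 3 pairs stood on the nuclear copy. For mt-Co2 and Gm28661, mt-Co2 had 2887 and 1310 expected counts, against 212412 and 202377 on Gm28661. The copy thus held 98.7% and 99.4% of the pair. For mt-Co3 and Gm28437, mt-Co3 had 32381 and 32572 expected counts, against 150778 and 153133 on Gm28437, which held 82.3% and 82.5%. mt-Atp6 had 62450 and 68219 expected counts, against 145263 and 144707 on Gm10925, a share of 69.9% and 68.0% on the copy. Gm29216 took 9.24% and 9.49% of its pair with mt-Co1. By expected counts the remaining copies took at most 0.13% of their pairs, so mt-Nd3, mt-Nd4l and mt-Nd4 kept nearly all of those counts. By the posterior mean counts of the gene table, Gm10222 took 8.46% and 5.97% of its pair with mt-Nd4l. In the second table Gm28439 took 4.78% and 6.75% of its pair with mt-Nd4.

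The second table placed the same kind of reads differently. Gm28661 held 94.4% and 94.7% of the counts it shared with mt-Co2, and Gm28437 held 76.4% and 76.9% of those shared with mt-Co3, but Gm10925 held 1.04% and 0.12% of those shared with mt-Atp6. mt-Atp6 and Gm10925 are identical over all 678 aligned bases, and the tables nonetheless gave them opposite majorities. The posterior mean counts in the gene table, a second estimate from the same program layout, gave mt-Co2 15808 and 12113 counts with deposited posterior SDs of 3068 and 3032. The deposited credibility bounds of its TPM ran from 543 to 1120 and from 316 to 922, above the 152 and 69.0 TPM that go with its expected counts. For mt-Co3 the posterior mean counts were 74913 and 75502, over 2 times the expected counts. How many of these reads came from chromosome 1 and how many from the mitochondrion cannot be told apart from the tables.

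**Figure D1:**
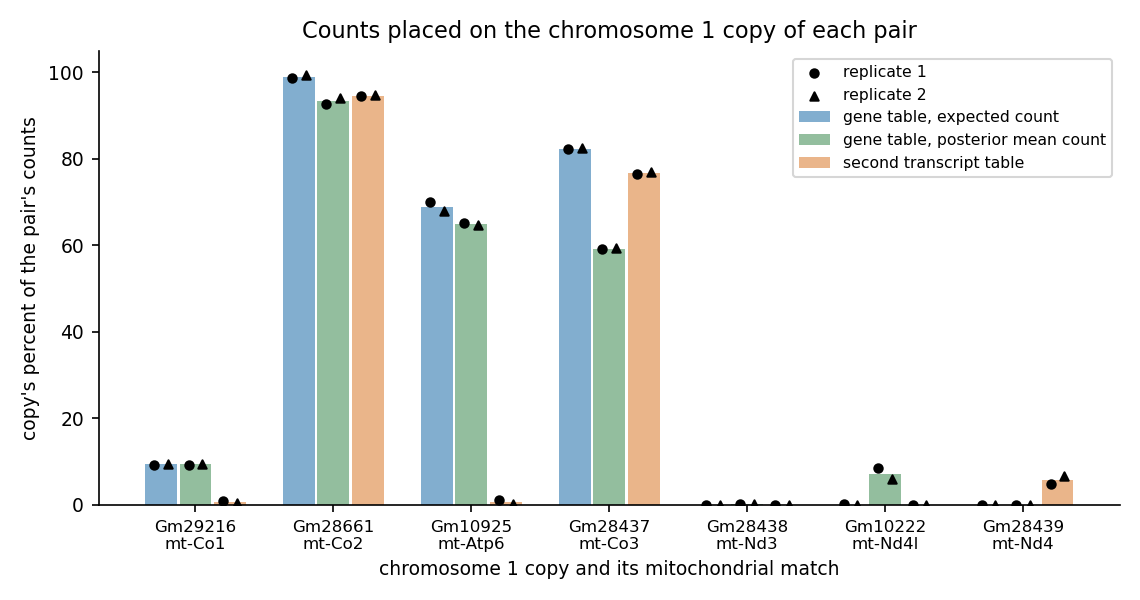
Percent of each pair's counts placed on the chromosome 1 copy (y axis) for the 7 pairs in mitochondrial gene order (x axis); bars are means of the 2 libraries, circles replicate 1 and triangles replicate 2, for expected counts and posterior mean counts of the gene table and for the second transcript table. Gm28661 held 98.7% and 99.4% of its pair in the gene table, against 94.4% and 94.7% in the second table, while Gm10925 held 69.9% and 68.0% in the gene table, against 1.04% and 0.12% in the second table.

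Elsewhere in the genome, 4 further genes matched a mitochondrial gene at 95% identity or more over at least 80% of their length, on chromosomes 2 and 13. None held more than 287 counts in any library and table. The 7 copies on chromosome 1 together held 552277 and 546925 expected counts, which is 1.42% and 1.43% of the libraries. Their counts were therefore added to those of their mitochondrial matches as an alternative, chosen after the data were seen, and levels on that basis are called copy-added. Copy-added levels are upper values only within 1 table, since they assign every count of these 7 copies to the mitochondrion. Counts of the 4 further genes were not added.

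Complex IV, cytochrome c oxidase, passes electrons to oxygen, and 3 of its subunits are mitochondrial. mt-Co1 (chrM:5328-6872) encodes the catalytic subunit and had 9178 and 9494 TPM in the gene table, or 10112 and 10489 TPM copy-added. mt-Co2 (chrM:7013-7696) encodes the subunit that takes electrons from cytochrome c. It had 152 and 69.0 TPM as deposited, and 11349 and 10724 TPM copy-added, a difference of 74.6-fold and 155-fold. mt-Co3 (chrM:8607-9390), the third core subunit, had 1458 and 1465 TPM as deposited and 8245 and 8350 TPM copy-added. As deposited the 3 levels differed widely, and copy-added they lay within 8245 to 11349 TPM in both libraries.

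For ATP synthase, complex V, the genome encodes 2 subunits. mt-Atp6 (chrM:7927-8607), part of the proton channel, had 3309 and 3610 TPM as deposited and 11005 and 11269 TPM copy-added. mt-Atp8 (chrM:7766-7969), a small membrane subunit, had 3507 and 2721 TPM and no annotated copy on chromosome 1. Their reading frames overlap by 43 bases in 1 shared mRNA. The end of mt-Atp8 (chrM:7918-7969, plus strand, GENCODE M21) shows it, with the start codon of mt-Atp6 and the stop codon of mt-Atp8 in capitals.
mt-Atp8, end: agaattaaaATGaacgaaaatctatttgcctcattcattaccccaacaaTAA
Although the frames are known to be carried by 1 mRNA, copy-added mt-Atp6 stood 3.14-fold and 4.14-fold above mt-Atp8 in gene-table TPM. As deposited there, the ranges of mt-Atp6 and mt-Atp8 over the libraries overlapped. In the second table mt-Atp8 was listed at 0. Reads in the 43 shared bases can count for either gene.

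A second such pair gave near-equal levels in the gene table, but not in the second. mt-Nd4l (chrM:9877-10173) and mt-Nd4 (chrM:10167-11544), both membrane subunits of complex I, overlap by the 7 bases in capitals at the end of mt-Nd4l (chrM:10152-10173, plus strand, GENCODE M21).
mt-Nd4l, end: tctcaacctactacaATGCTAA
mt-Nd4l had 2932 and 2542 TPM and mt-Nd4 2878 and 2744 TPM in the gene table. The ratio of mt-Nd4l to mt-Nd4 was 1.02 in replicate 1 and 0.926 in replicate 2. In the second table mt-Nd4l had 6.16 and 2.35 TPM, against 4076 and 3839 TPM for mt-Nd4.

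Complex I, NADH dehydrogenase, takes up electrons from NADH, and 7 of its membrane subunits are mitochondrial. mt-Nd1 (chrM:2751-3707), which lies at the quinone binding site, was highest of them with 4829 and 4562 TPM. mt-Nd2 (chrM:3914-4951) had 1921 and 1785 TPM and mt-Nd5 (chrM:11742-13565) 2436 and 2441 TPM, both of them proton-pumping subunits related to bacterial antiporters, as is mt-Nd4. mt-Nd3 (chrM:9459-9806), a small subunit, had 2020 and 2004 TPM. The 6 subunits read from the plus strand thus lay between 1785 and 4829 TPM in the gene table. mt-Cytb (chrM:14145-15288), the only mitochondrial subunit of complex III, had 5484 and 5114 TPM.

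mt-Nd6 (chrM:13552-14070), also of complex I, is the only mRNA on the minus strand. In the gene table it had 644 and 608 TPM, the lowest of all 13 copy-added mRNAs and the second lowest as deposited. It contributed 1.58% and 1.55% of the mRNA TPM there, or 0.955% and 0.930% copy-added. In the second table mt-Nd6 had 1195 and 1131 TPM. That placed it 9 from the top of the 13 as deposited and 10 from the top copy-added. Its base make-up mirrors its strand, with 28.1% G and 5.97% C, while the other 12 mRNAs held 5.88% to 16.1% G and 22.1% to 30.0% C. It overlaps the end of mt-Nd5 by 14 bases on the opposite strand. The sources used here do not say whether strand entered the counting, so reads in that overlap, and precursor reads from the opposite strand, cannot be told apart from mt-Nd6 reads.

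The 12 plus-strand mRNAs are cut from 1 kind of precursor. In the gene table their highest copy-added level stood 5.91-fold and 6.31-fold above the lowest. In the second table copy-added means ran from 0 for mt-Atp8 and 4.25 TPM for mt-Nd4l up to 18180 TPM for mt-Co2. The 4 with the highest copy-added levels in either table were mt-Atp6, mt-Co2, mt-Co1 and mt-Co3. In the gene table these 4 also received the most counts from the copies, so the ranking depends on the addition. As deposited, mt-Co1, mt-Atp6, mt-Co3 and mt-Co2 ranked 1, 4, 11 and 13 there, with mt-Cytb 2 and mt-Nd1 3. In the second table as deposited the same 4 ranked 1, 2, 8 and 10. The 4 lie in 1 region of the genome, which the chromosome 1 copy matches in part. Within it mt-Atp8 lies between mt-Co2 and mt-Atp6. In the gene table mt-Atp8 ranked 7 by copy-added level. There the 4 together held 60.4% and 62.5% of the copy-added mRNA TPM, and 34.6% and 37.4% as deposited. Level and position along the genome showed little order over the 12 mRNAs in the gene table. Spearman's rho across these genes, which share libraries and precursor and are not independent, was 0 as deposited and -0.20 copy-added.

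**Figure D2:**
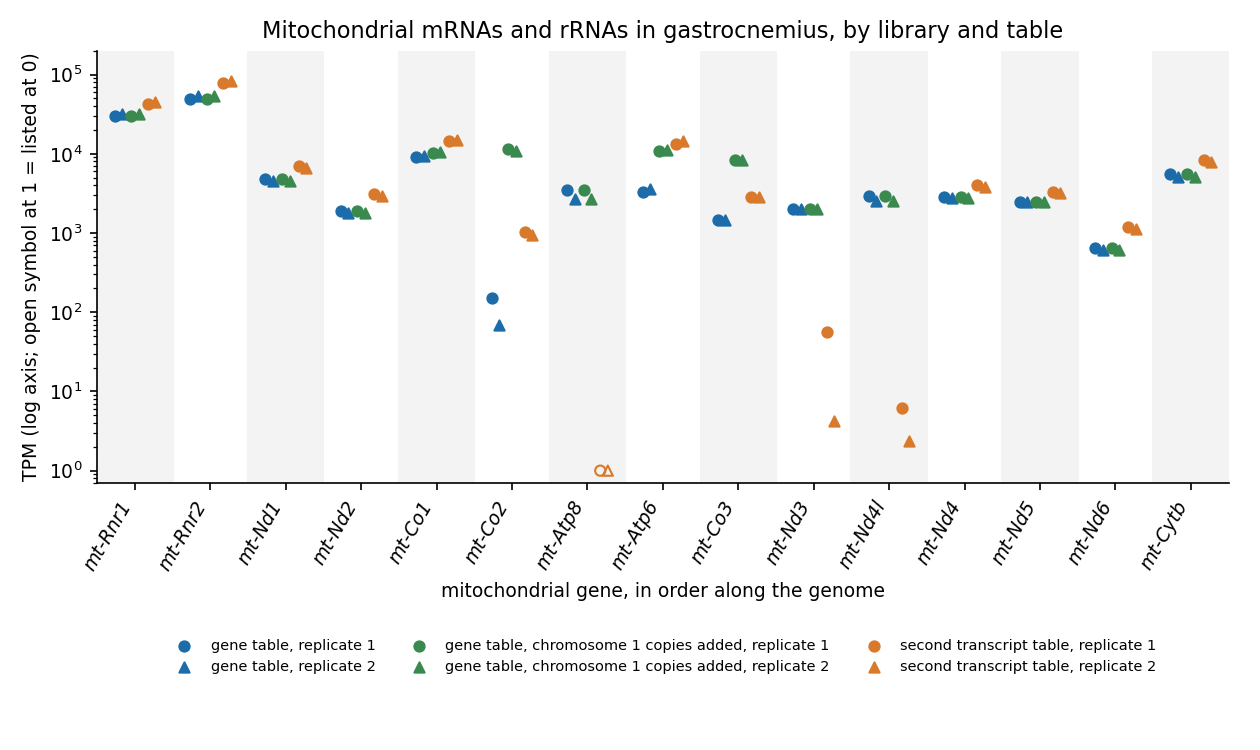
TPM on a log axis (y) of the 2 rRNAs and 13 mRNAs in genome order (x), in the gene table as deposited, in the gene table with the chromosome 1 copies added, and in the second transcript table; circles are replicate 1, triangles replicate 2, and open symbols drawn at 1 mark values listed at 0. The libraries lie close together for most genes, while the tables part for mt-Co2, mt-Atp8, mt-Atp6, mt-Nd3 and mt-Nd4l.

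The coding ends of the mRNAs carry further features of this genome. The first codon is ATG in 9 of the 13, GTG in mt-Nd1, ATA in mt-Nd2, ATT in mt-Nd3 and ATC in mt-Nd5. In 10 mRNAs the annotated gene is a whole number of codons. The other 3 end in a single base after the last full codon, a T that is known to become a stop codon when the poly(A) tail is added. The last 21 bases of mt-Co3 (chrM:9370-9390), mt-Nd4 (chrM:11524-11544) and mt-Cytb (chrM:15268-15288), all on the plus strand in GENCODE M21, show that base in capitals.
mt-Co3, end: ccatttattgatgaggatctT
mt-Nd4, end: taattacaggcctgacaataT
mt-Cytb, end: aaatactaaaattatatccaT
As deposited the levels of these 3 were not set apart from the rest, at 1461 ± 4.91 TPM for mt-Co3, 2811 ± 95.4 TPM for mt-Nd4 and 5299 ± 261 TPM for mt-Cytb (SD, n = 2). The level of mt-Co3 depends on the copies. Copy-added it was 8298 ± 74.4 TPM and ranked 4 of the 13, against 11 as deposited.

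The tables differed by over 2-fold in mean TPM for 5 of the 13 mRNAs. Higher in the gene table were 3, mt-Atp8, mt-Nd3 and mt-Nd4l, against 0.338% of the 10949 nuclear protein-coding genes that averaged at least 100 expected counts. Higher in the second table were 2, mt-Co2 and mt-Atp6, against 8.12% of those nuclear genes. Over the nuclear genes the second table was 1.46-fold higher at the median, so moderately higher values there are the background. The other 8 mRNAs were 1.33-fold to 1.96-fold higher in the second table, with mt-Co3 at the upper end.

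The 3 mRNAs that were higher in the gene table are the shortest of the 13. mt-Atp8, of 204 bases, had 11942 and 9276 expected counts in the gene table and was listed at 0 in the second. mt-Nd4l, of 297 bases, had 18827 and 16340 expected counts in the gene table, against 10 and 4 estimated counts in the second. mt-Nd3, of 348 bases, had 16310 and 16203 expected counts, against 114 and 9. These lengths are below the mean fragments of 347 and 355 bases implied by the second table, or at them for mt-Nd3, and mt-Nd6, next in length with 519 bases, had 8767 and 8285 expected counts, against 5636 and 5278 estimated counts. Which transcripts hold those reads in the second table was not tested.

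With the chromosome 1 copies added in both tables, mt-Co2 and mt-Atp6 no longer stood over 2-fold apart. mt-Co2 then had 11349 and 10724 TPM in the gene table, against 18272 and 18088 TPM in the second. mt-Atp6 had 11005 and 11269 TPM in the gene table, against 13586 and 14379 TPM in the second. The 3 short mRNAs remained over 2-fold apart, with mt-Nd3 67.0-fold and mt-Nd4l 644-fold higher in the gene table.

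Each mitochondrial mRNA was then set against the nuclear mRNAs of its complex, on TPM of the gene table. The 13 mitochondrial mRNAs had a median of 2878 and 2542 TPM, against 253 and 285 TPM for 78 listed nuclear subunits of complexes I to V. For complex I the 7 mitochondrial mRNAs had medians of 2436 and 2441 TPM, against 162 and 180 TPM for 36 nuclear subunits, which is 15.0-fold and 13.6-fold. All 36 nuclear subunits lay below mt-Nd6, the lowest mitochondrial one at 626 ± 25.5 TPM (SD, n = 2). The highest of the 36 was Ndufc1, an accessory subunit, at 431 ± 22.8 TPM. For complex III mt-Cytb stood 15.4-fold and 13.5-fold above the median of 9 nuclear subunits, and Uqcrq was highest of these at 464 ± 59.2 TPM.

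In complexes IV and V the size of the difference depended on the copies. As deposited, 13 of 14 nuclear subunits of complex IV lay above mt-Co2, which averaged 111 ± 58.8 TPM, and Cox4i1, a regulatory subunit, was highest of them at 726 ± 60.8 TPM. Copy-added, 0 of 14 lay above the lowest mitochondrial one, mt-Co3 at 8298 ± 74.4 TPM. The mitochondrial median of complex IV was 3.79-fold and 3.41-fold above the nuclear median as deposited, and 26.3-fold and 24.4-fold above it copy-added. For complex V it was 7.36-fold and 6.25-fold above as deposited, and 15.7-fold and 13.8-fold copy-added. For complex V both mitochondrial mRNAs lay above all 15 nuclear subunits as deposited. The lower of the pair, mt-Atp8, averaged 3114 ± 556 TPM, against 1847 ± 184 TPM for Atp5b, the catalytic beta subunit and the highest of the 15. Complex II has no mitochondrial subunit, and its 4 nuclear mRNAs Sdha, Sdhb, Sdhc and Sdhd lay between 162 and 340 TPM. In the second table mt-Nd3 and mt-Nd4l lay below all 36 nuclear subunits of complex I, at 30.0 ± 36.5 and 4.25 ± 2.70 TPM (SD, n = 2), against 132 TPM for Ndufa1, the lowest of those. There mt-Atp8, listed at 0, lay below all 15 of complex V.

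**Figure D3:**
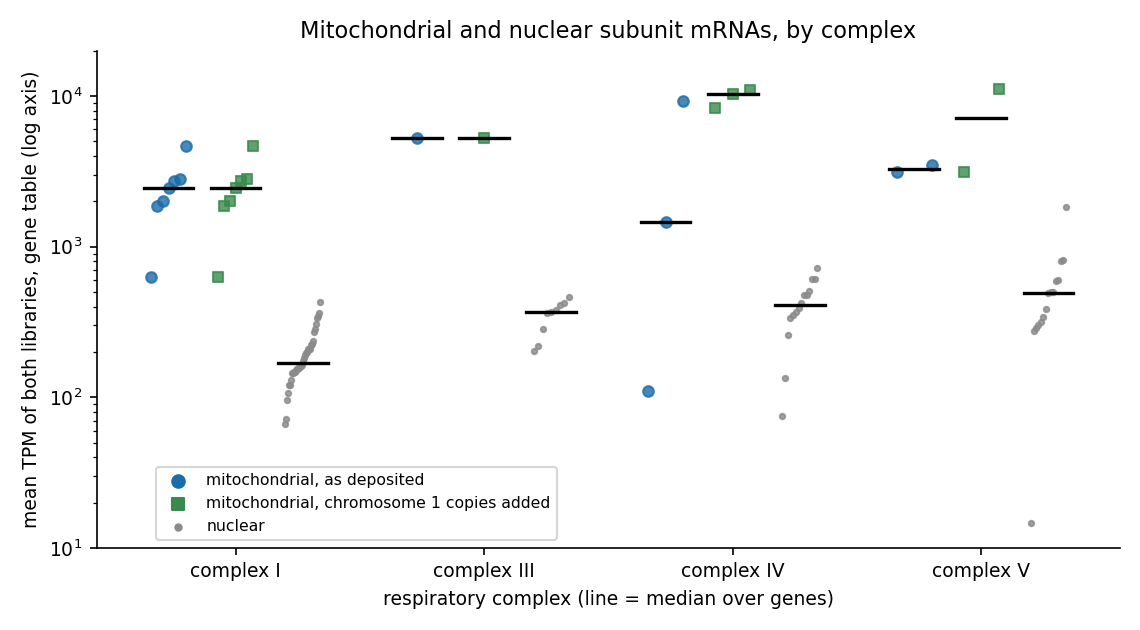
Mean TPM of the 2 libraries in the gene table on a log axis (y) for mitochondrial mRNAs as deposited, the same with chromosome 1 copies added, and nuclear subunit mRNAs, by respiratory complex (x); each point is a gene and each line a median over genes. With copies added, all mitochondrial mRNAs lie above all nuclear subunits of their complex, and as deposited mt-Co2 at 111 TPM lies below 13 of 14.

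Between the libraries most mRNAs differed little in the gene table. The log2 ratio of replicate 1 over replicate 2 had a median of 0.01 over the 13 mRNAs, with 7 higher in replicate 1 and 6 in replicate 2. Past 0.32 on the log2 scale, the threshold used for libraries, replicate 1 was higher for 1 of 13, mt-Co2 with a log2 ratio of 1.07, against 4.06% of nuclear protein-coding genes. Past it in the other direction, replicate 2 was higher for 0 of 13, against 5.61%. Copy-added, the log2 ratio of mt-Co2 was 0.01 (exact binomial 95% interval 0.001 to 0.019), and none of the 13 passed the threshold in either direction. The range over the 13 copy-added mRNAs ran from -0.12 for mt-Co1 to 0.29 for mt-Atp8. In the second table as deposited, mt-Co2 had a log2 ratio of 0.001, while mt-Nd3 and mt-Nd4l passed the threshold at 3.49 and 1.12. These rested on few estimated counts, 114 and 9 for mt-Nd3 and 10 and 4 for mt-Nd4l.

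Nuclear subunits of the same complexes were mostly higher in replicate 2. In the gene table that library held the higher level for 77 of 78 nuclear oxidative phosphorylation genes, against 55.9% of all 10949 nuclear protein-coding genes. The log2 ratios had a median of -0.21 over the 78 and -0.02 over the 10949. Most of these differences were small, and 7 of 78 passed the threshold towards replicate 2, against 5.61% of nuclear genes. The medians ran from -0.25 for complex IV to -0.15 for complex V. The single gene of the 78 higher in replicate 1 in the gene table was Atp5g2, a subunit of the rotating ring. Its log2 ratio was 0.51 there, against -0.15 in the second table. Atp5g2 had 14.6 ± 4.11 TPM in the gene table, against 472 ± 13.4 TPM in the second. Cox8b and Ndufa1 turned the other way, with log2 ratios of -0.37 and -0.15 in the gene table, against 0.28 and 0.28 in the second. The median of the 78 in the second table was -0.20. With other scalings, 76 or 77 of the 78 were higher in replicate 2 and both mitochondrial rRNAs were too, while the median of the mitochondrial mRNAs moved between -0.004 and 0.05. The difference between mitochondrial mRNAs and nuclear subunits was not tested, since each rests on the same 2 libraries. The liver markers also differed between these libraries, at 1.06 and 9.76 TPM in sum, and their part in the result was not tested.

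**Figure D4:**
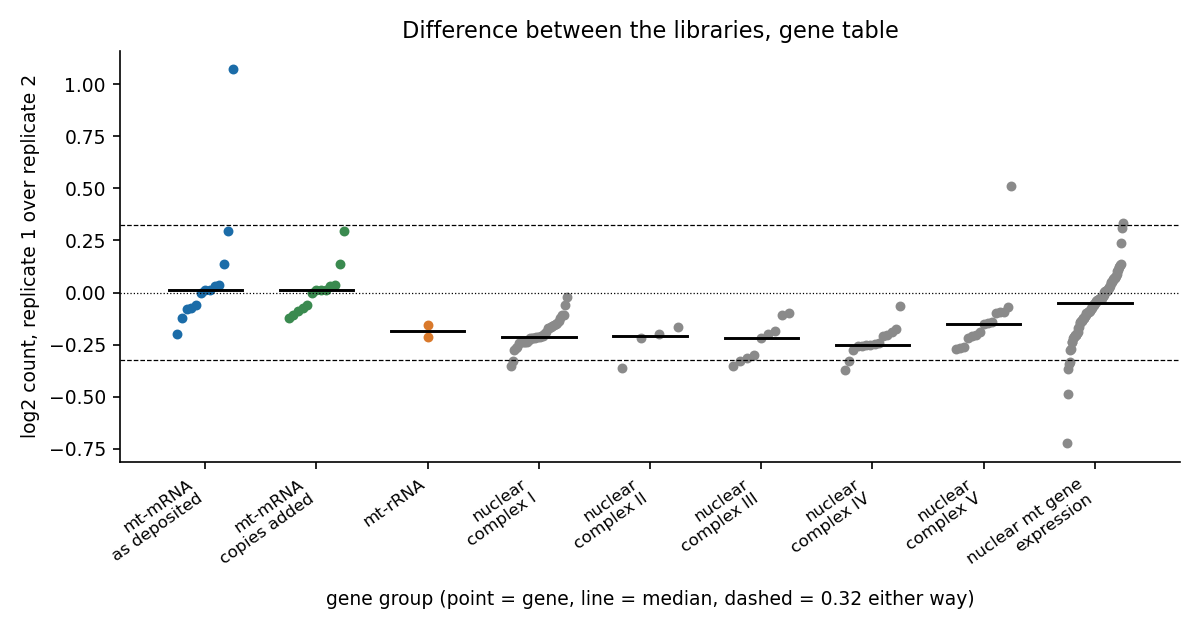
Log2 ratio of scaled counts, replicate 1 over replicate 2, in the gene table (y) for mitochondrial mRNAs as deposited and copy-added, mitochondrial rRNAs, nuclear subunits of complexes I to V and nuclear genes of mitochondrial gene expression (x); each point is a gene, solid lines are medians and dashed lines mark 0.32 either way. The mitochondrial mRNAs centre on 0.01, apart from mt-Co2 at 1.07 as deposited, and the rRNAs and nuclear subunits lie mostly below 0.

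Nuclear genes that transcribe, process, modify and translate mitochondrial RNA were far less abundant. The 89 listed genes had a median of 7.10 and 7.32 TPM, 87 of them reached 1 TPM in both libraries, and their median log2 ratio between libraries was -0.05. Tfam, which packages mitochondrial DNA and starts its transcription, had 20.4 and 20.7 TPM, and Polg, the catalytic subunit of the mitochondrial DNA polymerase, 19.1 and 13.1 TPM. Slirp, which binds and stabilises mitochondrial mRNAs, was the highest of the processing and stability list in the gene table with 71.7 and 72.2 TPM. Fastk, known to be needed for mt-Nd6 mRNA, followed with 60.3 and 68.0 TPM. In the second table their order turned, with 64.6 and 19.2 TPM for Slirp and 116 and 109 TPM for Fastk. Grsf1 also stood above Slirp there, at 87.2 and 82.6 TPM. The summed counts of Slirp differed less than its TPM in that table, with a log2 ratio of -0.10 between the libraries. Fastkd5, known from human cells to act on precursor ends that lack a tRNA, had 2.06 and 2.08 TPM in the gene table.

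Among translation genes Tufm, the mitochondrial elongation factor that carries tRNAs to the ribosome, had 48.3 and 57.0 TPM, and Gfm1, the factor that moves the ribosome along, 32.97 and 33.09 TPM. Of 22 genes listed as mitochondrial tRNA synthetases, Kars and Gars were highest in the gene table, at 48.6 and 48.5 TPM and at 28.44 and 26.98 TPM, and both also serve the cytosol. Lars2, which charges the leucine tRNAs, stood at 18.2 TPM in replicate 1, against 28.3 TPM in replicate 2, a log2 ratio of -0.72 and the widest of the 85 genes of mitochondrial gene expression with a mean count of 100 or more. In the second table Lars2 had 81.3 and 150 TPM, with a log2 ratio of -0.96, and its mean of 115 TPM was above those of Kars at 73.7 and Gars at 40.5 TPM. The search for nuclear copies kept only genes matched over at least 80% of their length. Whether Lars2 shares reads with a mitochondrial gene was therefore not tested. The tRNAs these enzymes charge were listed at 0, so the enzymes and their tRNAs could not be set side by side.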

How the data were processed

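Per the file headers, the authors deposited gene tables in RSEM's layout, which give TPM beside expected counts and posterior means. Their second transcript table, in kallisto's layout, gives deposited estimated counts and TPM. Both use mm10 and GENCODE M21, per the accompanying notes. The sources used here do not give the aligner, program versions or use of strand. Deposited TPM is scaled over all features.

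Transcripts of the second table were summed by gene. Counts were scaled with TMM (edgeR 4.0.16, R 4.3.3) over genes averaging at least 10 counts, and log2 ratios used a prior count of 0.5. Nuclear copies were found by aligning GENCODE M21 transcripts with BLAST 2.17.0 at 95% identity over 80% of the copy. Copy-added TPM divides the summed counts by the effective length of the mitochondrial gene. The scaling was tried on simulated counts with counting error only, in which 200 genes were changed by known folds, equally in both directions. That simulation held no variation between animals and no shift of a whole gene group, so it does not bear on either. Python 3.11.15, pandas 2.3.3 and scipy 1.17.1 were used for all else.

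The members and lists were chosen with earlier results of these data known. Named are all mitochondrial mRNAs and rRNAs, their nuclear copies, and by rule the 2 highest, 2 lowest and most different genes of each nuclear list, of which not all are printed. Of 169 list symbols, 2 had no match. No p-values were computed, as there is 1 group of 2 libraries. The threshold between libraries is 0.32 on the log2 scale and 2-fold is that between the tables, both set against nuclear protein-coding genes with at least 100 counts on average. Alternatives were the second table, posterior mean counts, other scalings (DESeq2 1.42.0 among them), filters, pseudocounts, means, leaving out each replicate and the copies added.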

Additional observations from a re-analysis of the deposited data

How the results depend on the processing

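With 2 libraries, leaving out 1 says nothing about stability, so those values are not read as a check. The mitochondrial share of counts, 11.8%, was 12.6% without spike-ins and 7SL RNA genes and 13.3% with the listed nuclear copies added. The rRNA share of mitochondrial counts, 73.4%, was 65.5% with the chromosome 1 copies added. The median mRNA level, 2710 TPM, was 3042 in the second table, 2265 per kilobase of annotated length and 3125 with the copies added. The median log2 level of mitochondrial mRNAs over nuclear subunits, 3.33, was 2.80 in the second table, 2.94 per kilobase and 3.04 with means. The mt-Nd6 share of mRNA TPM, 1.57%, was 1.98% in the second table, 1.46% with posterior means, 1.49% per kilobase and 0.943% with the copies added. The median log2 ratio of the mRNAs, 0.01, was 0.0538 with library totals, 0.0421 with spike-in totals, -0.0174 in the second table, -0.00358 with no filter in the scaling and 0.081 as a mean. That of the summed rRNAs, -0.20, was -0.16 with library totals, -0.17 with spike-in totals, -0.22 in the second table and -0.21 with no filter. The number of mRNAs over 2-fold apart between the tables, 5, was 10 at 1.5-fold and 3 with the copies added. The causes of these shifts were not tested. No paired analysis was possible because there is 1 group. The number of libraries, reads shared with the copies and depth all limit the precision of the levels.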
